A study of Mus musculus with 13 samples.

Results

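The levels of 10 genes known for axon growth and regeneration, Gap43, Basp1, Marcks, Marcksl1, Stmn1, Stmn2, Sox11, Atf3, Sprr1a and Klf7, were followed in the CA1 region of mouse hippocampal tissue cultures. They were chosen by name, with earlier results of these data known, and all 10 were found among the 55291 gene symbols counted. RNA was sequenced from 13 libraries, each made from 1 CA1 region of 1 entorhino-hippocampal slice culture of wildtype C57BL/6 mice (C57BL/6J in the protocol text). The cultures were prepared at postnatal day 4 to 5 and kept for at least 18 days in vitro before any lesion. There were 5 non-lesioned control cultures, 4 cultures 3 days after Schaffer collateral lesion (SCL), a scalpel cut between CA3 and CA1, and 4 cultures 3 days after entorhinal cortex lesion (ECL), a cut through the perforant path. The labels name no transgene and no drug for any of these groups. Scar tissue at the cut was left out when CA1 was isolated, and replicates were separate cultures. Cultures of both sexes entered unequally, with 3 of 5 controls, 3 of 4 SCL cultures and 1 of 4 ECL cultures female by the column headings.

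An axon that is cut in a peripheral nerve usually grows back, and its neuron switches on a programme of genes while it does so. Transcription factors such as ATF3, SOX11 and KLF7 act at the top of this programme, and proteins of the growth cone, the moving tip of the axon, act at its end: GAP43, BASP1 and MARCKS organise actin under the membrane, and stathmins regulate microtubules. GAP43 and several of its partners remain expressed in the mature hippocampus, where surviving axons can sprout after a lesion. The pathways that SCL and ECL sever arise from neurons of CA3 and of the entorhinal cortex, while pyramidal neurons of CA1 lose input. The whole CA1 region was sampled here, with all its cell types.

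The promoters of Sprr1a and Atf3, both known as genes that injured neurons induce, are shown first, because Sprr1a was the member that differed most between lesioned and control cultures and Atf3 is the injury factor that did not pass the test. Both are the 250 bases before the RefSeq start on GRCm38.p6, printed 5′ to 3′ on the strand of the gene, and in both the last bases lie in a first exon of GENCODE M21. For Atf3 that exon belongs to a shorter transcript, so that the window lies inside the annotated gene, downstream of the start of its longest transcript. Sprr1a lies at chr3:92485882-92486131 on the minus strand and Atf3 at chr1:191183334-191183583 on the minus strand. Capitals mark every match on either strand to TGANTCA (the AP-1 motif), TGACGTCA (the CRE motif), NTACGTCA (a CRE-like motif), TATAAA (the TATA box) or GGGCGG (the GC box).
Sprr1a: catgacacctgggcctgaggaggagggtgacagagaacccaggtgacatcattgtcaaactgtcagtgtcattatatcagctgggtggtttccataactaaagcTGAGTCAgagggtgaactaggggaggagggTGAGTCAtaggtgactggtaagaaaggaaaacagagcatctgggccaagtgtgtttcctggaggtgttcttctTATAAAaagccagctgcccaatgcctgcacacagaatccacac
Atf3: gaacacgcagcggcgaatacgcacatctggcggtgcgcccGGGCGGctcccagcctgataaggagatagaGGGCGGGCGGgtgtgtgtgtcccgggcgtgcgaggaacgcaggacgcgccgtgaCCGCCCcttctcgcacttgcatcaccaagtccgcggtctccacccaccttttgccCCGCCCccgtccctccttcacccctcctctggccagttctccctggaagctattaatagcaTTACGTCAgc

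The Sprr1a window held 2 AP-1 matches, which start at positions -146 and -116 from the RefSeq start, and 1 TATA box match. Of all 32817 RefSeq promoter windows of this length, 6.75% held an AP-1 match and 12.4% a TATA box match. The Atf3 window held 1 CRE-like match at position -10 and 5 GC box matches, motifs that 1.07% and 32.7% of all windows held, and no AP-1 match. None of the other 4 members with a window in the RefSeq table (Klf7, Sox11, Basp1 and Marcksl1) held an AP-1, CRE, CRE-like or TATA box match, while Klf7 held 1 GC box match, Sox11 2 and Basp1 4. Some GC box matches of Atf3 and Basp1 overlap each other. A match describes letters only and is no evidence of binding. Gap43, Marcks, Stmn1 and Stmn2 had no window in the table.

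Library totals ran from 14371152 to 21092612 counts in controls and from 16405517 to 56786613 in lesioned cultures. Most lesioned libraries were thus deeper than any control. At least 1 count was found for 29987 to 40042 symbols in controls and for 28685 to 35163 in lesioned cultures. Control replicates 1, 3 and 4 held more symbols than any lesioned culture. The part of these differences in the results was not tested. The most symbols were found in control replicate 4, which also held the highest control level of Marcks, Stmn2, Sox11 and Klf7, so values without it are given where they bear on a result. Titles name CA1 as the tissue while the protocol text of the labels speaks of another hippocampal field, the dentate gyrus. All 6 CA1 pyramidal markers were detected, with a summed level of 305 to 388.9 CPM (counts scaled to the library total) in controls, while 5 dentate granule cell markers summed to 16.8 to 24.3 CPM, and 5 CA3 markers summed to 347 to 444 CPM. Most of the CA3 sum was Dkk3, with a control mean of 330 CPM. Control means of the other CA3 markers were 38.1 (Cpne4), 13.2 (Bok), 6.44 (Grik4) and 0.369 CPM (Iyd). In the following, CPM are scaled by TMM factors, and log2 fold changes are from edgeR's quasi-likelihood test with Benjamini-Hochberg adjustment over all genes whose normalized counts averaged 150 or more. In bulk tissue, fewer cells of a type and less RNA per cell cannot be told apart.

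Of the 10 members, 9 reached the mean minimum in each comparison with controls, and Sprr1a did not. One member, Klf7, passed the test after SCL (1 of 9), and 2 members, Klf7 and Marcks, passed it after ECL (2 of 9). All 3 calls were lower after the lesion. Over all genes tested, 24.6% were called after SCL (11.6% lower) and 27.6% after ECL (12.4% lower). The median log2 fold change of the 9 members was -0.28 after SCL and -0.33 after ECL, beside 0.01 and -0.01 over all 11733 and 11392 genes tested. Levels were fully separate between lesion and control in 1 of the 9 tested members for SCL (Klf7) and in 2 of 9 for ECL (Klf7 and Marcks), against 23.3% and 24.9% of all genes tested, and also in Sprr1a, which was not tested. Scaling shifts these medians: with TMM factors over all symbols the median of all genes moved to 0.21 after SCL and 0.18 after ECL. The called genes then split into 2554 higher and 602 lower after SCL, in place of 1529 and 1362, and into 2460 higher and 695 lower after ECL, in place of 1722 and 1417, and DESeq2 gave 2028 higher and 1144 lower after SCL. The members called stayed 1 of 9 and 2 of 9 under both. Both lesions are compared with the same 5 control libraries, so their values are given side by side and are not independent of each other.

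**Figure D1:**
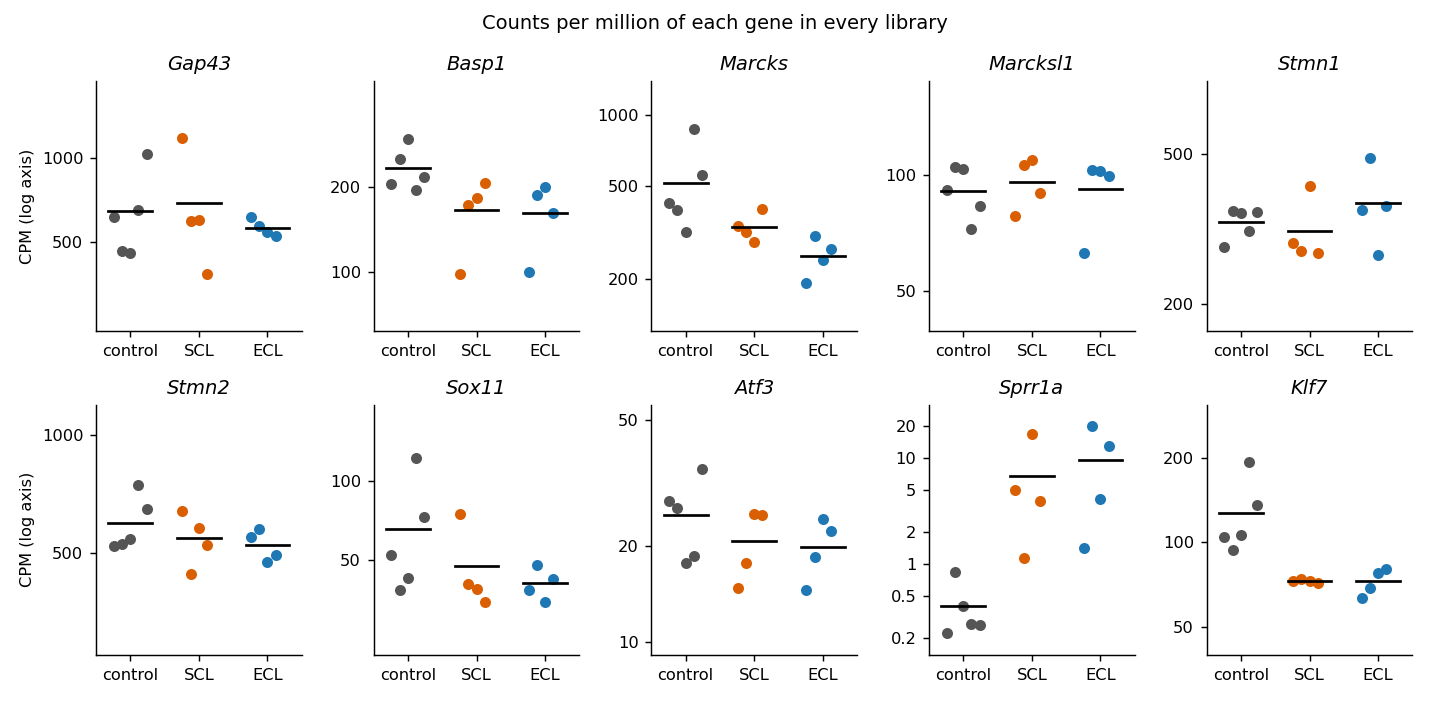
CPM (TMM-scaled, log axes that differ between panels) of the 10 genes in each of the 13 libraries; points are libraries, in order of replicate number from left to right, and black bars are group means. Sprr1a is higher in all 8 lesioned libraries than in any control, Klf7 is lower in all 8, and the other genes overlap between groups except Marcks after ECL.

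Members differ widely in level. Compared per kilobase of exon, Gap43 was the most abundant in controls at 423 ± 154 CPM per kb (SD, n = 5), above 99.1% of the genes kept. Stmn1 (172 ± 16.1), Marcks (127 ± 54.5), Basp1 (116 ± 20.4) and Stmn2 (107 ± 17.4) followed, each with a range over controls that overlapped that of the next. This order depends on the length used: per kilobase of the longest transcript, Stmn1 had 311 and Stmn2 175 CPM per kb, and Stmn2 then came before Marcks at 127 and Basp1 at 125.5 CPM per kb. Marcksl1 (56.7 ± 8.64 CPM per kb) stood apart from its neighbours on both sides. The 3 transcription factors came lower, Klf7 at 15.6 ± 4.96, Atf3 at 11.7 ± 3.31 and Sox11 at 7.92 ± 4.18 CPM per kb, with overlapping ranges. Sprr1a was last at 0.499 ± 0.316 CPM per kb. After the lesions Sprr1a rose to the range of these factors, at 8.25 ± 8.46 CPM per kb after SCL and 11.8 ± 10.3 after ECL (n = 4 each).

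**Figure D2:**
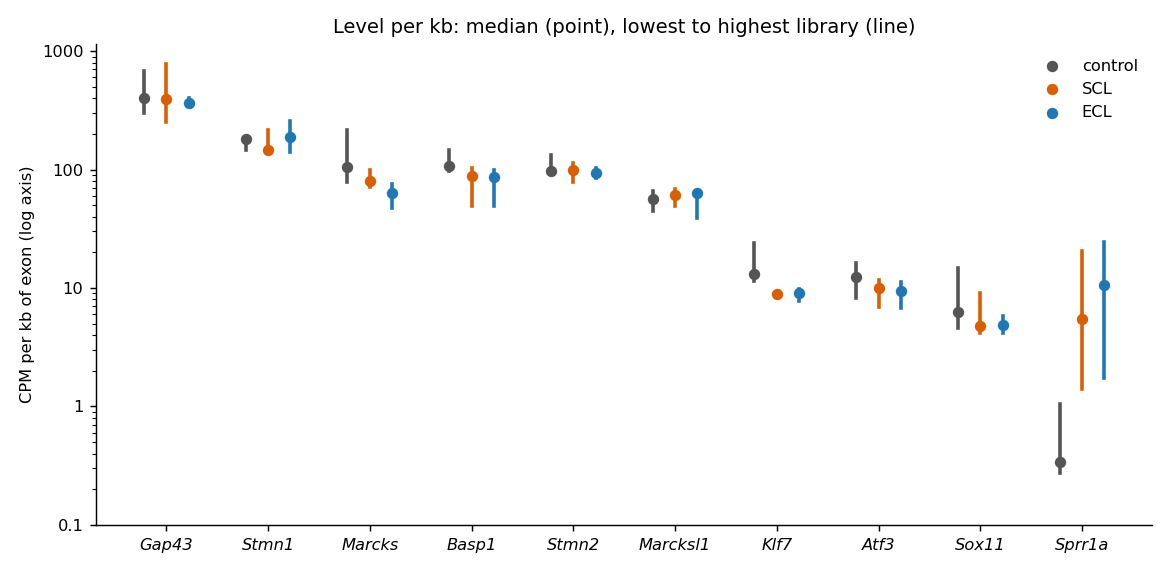
Level of each gene in CPM per kb of exon (log axis), in the order of the control means; points are group medians and lines run from the lowest to the highest library. Growth cone genes lie above the transcription factors, and Sprr1a moves the furthest of the 10, from 0.277 to 1.05 CPM per kb in controls to between 1.41 and 24.3 in lesioned cultures.

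Sprr1a encodes a small proline-rich protein of the cornified envelope of skin that is also induced in injured sensory neurons (chromosome 3 of GRCm38, 92483952 to 92485895, minus strand). Its raw counts in control replicates 1 to 5 were 4, 16, 6, 5 and 4. After SCL they were 134, 66, 622 and 66 in replicates 1 to 4, and after ECL 62, 452, 86 and 298. All 8 lesioned cultures lay above all 5 controls, and they differed greatly among themselves. In CPM the controls ran from 0.223 to 0.842, the SCL cultures from 1.13 to 16.6, a 14.6-fold range, and the ECL cultures from 1.40 to 19.6, a 14.0-fold range. The lowest values after each lesion, SCL replicate 2 and ECL replicate 1, were thus close to the highest control, and the highest, SCL replicate 3 and ECL replicate 2, were far above it.

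Mean Sprr1a level was 0.402 ± 0.255 CPM over the 5 controls (SD), 6.65 ± 6.82 CPM over the 4 SCL cultures and 9.52 ± 8.34 CPM over the 4 ECL cultures, or 16.5 and 23.7 times the control mean. The mean of log2(CPM + 1) was higher by 2.06 after SCL and by 2.48 after ECL (two-sided exact permutation test, unadjusted p = 0.0159 for each, the smallest p that 5 against 4 libraries allow). The pseudocount of 1 understates the change of so low a gene. Without SCL replicate 3 the difference after SCL was 1.52, and without ECL replicate 2 that after ECL was 2.00. In edgeR fits over genes kept by filterByExpr, a lower minimum that Sprr1a passes through its lesioned libraries alone, its log2 fold change was 4.08 after SCL (SE 0.69) and 4.60 after ECL (SE 0.67), and with a sex term 4.07 and 3.75. These values are a description, since a gene that enters only where it is high had to differ. Because control libraries held so few Sprr1a counts, their ratio to the lesioned libraries is known only roughly.

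Markers of skin were looked at beside Sprr1a. The keratins Krt5 and Krt14 and the envelope proteins Ivl and Sprr1b had at most 3, 4, 2 and 10 counts in any lesioned library. The sum of all 5 keratinocyte markers, most of it Lor, was 2.00 to 9.19 CPM in controls, 2.64 to 4.34 CPM with SCL and 1.91 to 2.83 CPM with ECL. It was thus not higher in any lesioned library than in the highest control.

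Between the lesions, the log2 fold change of Sprr1a was 0.52 (ECL minus SCL, SE 0.81, adjusted p = 0.927 from edgeR), with an approximate 95% interval from -1.07 to 2.11. The level ranges of the lesions overlapped over nearly their whole width, and the interval is too wide to show that they act alike. The estimate was -0.38 with a sex term.

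Klf7, a Krüppel-like transcription factor that promotes neurite outgrowth, lies on chromosome 1 from 64029447 to 64122282 on the minus strand. Its level in control replicates 1 to 5 was 105, 94.1, 106, 193 and 136 CPM. It was 72.8, 73.9, 72.5 and 71.7 CPM in SCL replicates 1 to 4 and 63.5, 68.9, 77.8 and 80.2 CPM in ECL replicates 1 to 4. Every lesioned culture lay below every control, and the SCL cultures were nearly equal while the controls spread over a 2.05-fold range. Klf7 fell after SCL, with a log2 fold change of -0.80 (SE 0.19, adjusted p = 0.00976, edgeR), and after ECL, also by 0.80 on the log2 scale (SE 0.20, adjusted p = 0.00987, edgeR). The mean was 127 ± 40.3 CPM over the 5 controls (SD), 72.7 ± 0.904 CPM over the 4 SCL cultures and 72.6 ± 7.79 CPM over the 4 ECL cultures.

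Without control replicate 4, in which Klf7 was highest, the log2 fold changes were -0.61 after SCL (adjusted p = 0.00877) and -0.60 after ECL (adjusted p = 0.0109, both edgeR). Klf7 stayed called in all 22 alternatives for each lesion. Its log2 fold change lay lower than that of all but 4.88% of the genes tested after SCL and 5.54% after ECL. Of its exon bases, 39.4% are shared with antisense genes of GENCODE M21, and counting took no account of strand. Of these, Gm13748 had 0 to 12 counts per library, while Gm26649 was not among the symbols counted. These counts do not tell how many reads in the shared bases came from either strand.

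Sox11, a factor of immature and regenerating neurons (chromosome 12, 27334264 to 27342574, minus strand), did not pass the test. It had 52.4, 38.3, 42.6, 123 and 72.8 CPM in control replicates 1 to 5. In SCL replicates 1 to 4 it had 75.3, 40.5, 38.6 and 34.6 CPM, and in ECL replicates 1 to 4 38.4, 47.8, 34.5 and 42.4 CPM. Lesioned cultures lay within or just below the low end of the controls, with 1 SCL culture above most of them. Its log2 fold change was -0.47 after SCL (SE 0.33, adjusted p = 0.313) and -0.68 after ECL (SE 0.29, adjusted p = 0.0914, both edgeR), and -0.13 and -0.33 without control replicate 4. Without control replicate 2 Sox11 was called after ECL, at -0.83 (adjusted p = 0.0388, edgeR).

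Atf3, a stress-induced transcription factor that marks injured neurons (chromosome 1, 191170296 to 191218039, minus strand), was not called either. Its control replicates 1 to 5 had 27.8, 26.4, 17.8, 18.7 and 35.1 CPM. The SCL replicates had 14.8, 17.7, 25.3 and 25.2 CPM, and the ECL replicates 14.5, 18.6, 24.4 and 22.3 CPM. No lesioned culture lay above the range of the controls, and the lowest after each lesion lay below it. The log2 fold change was -0.28 after SCL (SE 0.24, adjusted p = 0.41, approximate 95% interval from -0.74 to 0.18) and -0.33 after ECL (SE 0.23, adjusted p = 0.312, interval from -0.78 to 0.13, both edgeR). A doubling, a log2 fold change of 1, lies outside both intervals. Under the offset for GC content and length Atf3 was called lower after ECL, at -0.63 (adjusted p = 0.0496, edgeR).

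**Figure D3:**
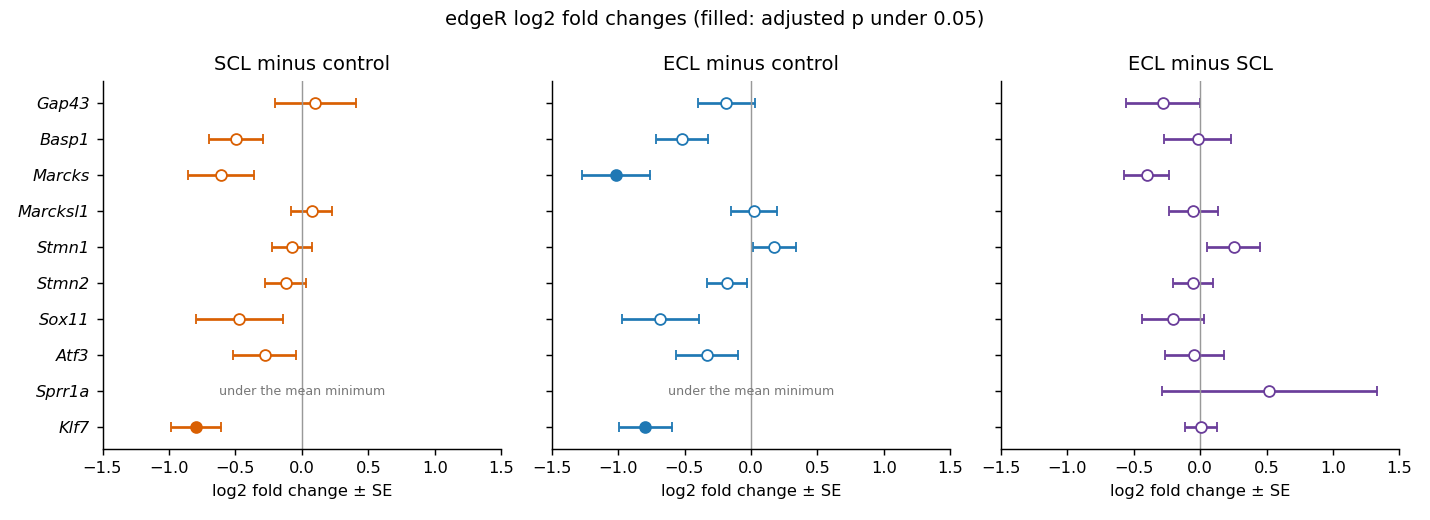
Log2 fold change (edgeR, points) with its standard error (bars) for each gene in the 3 comparisons; filled points have an adjusted p under 0.05. Klf7 is filled at -0.80 after both lesions and Marcks at -1.02 after ECL, no point is filled between the lesions, and Sprr1a was under the mean minimum against controls.

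Marcks encodes a myristoylated protein that binds actin and membrane lipids until protein kinase C releases it (chromosome 10, 37133375 to 37138920, minus strand). Its levels in control replicates 1 to 5 were 422, 394, 316, 875 and 559 CPM. In SCL replicates 1 to 4 they were 336, 318, 288 and 398 CPM, and in ECL replicates 1 to 4 192, 306, 240.3 and 269.5 CPM. All ECL cultures lay below the lowest control, if only just in replicate 2, and the SCL cultures overlapped with the lower controls. Marcks fell after ECL by 1.02 on the log2 scale (SE 0.26, adjusted p = 0.0103), from 513 ± 220.4 CPM (SD, n = 5) to 252 ± 48.3 (n = 4). After SCL its log2 fold change was -0.61 (SE 0.25, adjusted p = 0.0871, edgeR), with a mean of 335 ± 46.3 CPM. It was called after SCL under the offset for GC content and length, at -0.66 (adjusted p = 0.0482), with that offset and the replicate block, at -0.55 (adjusted p = 0.031), and without control replicate 3, at -0.74 (adjusted p = 0.0422, all edgeR).

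Without control replicate 4, the log2 fold change of Marcks was -0.75 after ECL (adjusted p = 0.0103) and -0.34 after SCL (adjusted p = 0.172, both edgeR). The call after ECL held in all 22 alternatives. The direct comparison of the lesions did not call it (ECL minus SCL -0.40, SE 0.17, unadjusted p = 0.0379, adjusted p = 0.662 from edgeR, exact permutation p = 0.0571), so that no difference between the lesions was shown for Marcks.

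Marcksl1, the smaller relative of Marcks (chromosome 4, 129513581 to 129515985, plus strand), had 72.2 to 105 CPM in controls, 78.4 to 109.7 CPM in SCL cultures and 62.8 to 103 CPM in ECL cultures. Its log2 fold change was 0.07 after SCL (SE 0.15, adjusted p = 0.756) and 0.02 after ECL (SE 0.17, adjusted p = 0.941, both edgeR), and the approximate 95% intervals ended at 0.37 and 0.36 upward and at -0.22 and -0.32 downward. Its pseudogene Marcksl1-ps4 had 0 counts in every library. Both estimates turned negative under the offset for GC content and length, at -0.29 and -0.44, the latter with an adjusted p of 0.038.

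Gap43, the growth cone protein that binds calmodulin and is phosphorylated by protein kinase C (chromosome 16, 42248442 to 42340651, minus strand), had 612, 466, 458, 649.8 and 1035 CPM in control replicates 1 to 5. It had 1176, 592, 599 and 384 CPM in SCL replicates 1 to 4. The ECL replicates had 615, 569.5, 541 and 526 CPM. The groups overlapped fully, SCL replicates 1 and 4 being the highest and the lowest of all 13 libraries. The log2 fold change was 0.10 after SCL (SE 0.31, adjusted p = 0.837, approximate 95% interval from -0.50 to 0.70) and -0.19 after ECL (SE 0.21, adjusted p = 0.546, interval from -0.61 to 0.23, both edgeR). Without SCL replicate 1 the value after SCL was -0.29.

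Basp1 encodes a membrane protein that resembles GAP43 in its function (chromosome 15, 25363277 to 25413764, minus strand). Its levels were 205, 251, 296, 195 and 217 CPM in control replicates 1 to 5. They were 98.7, 173, 182 and 207 CPM after SCL and 99.9, 187, 199 and 161 CPM after ECL in replicates 1 to 4. Only 1 culture of each lesion reached into the control range, and replicate 1 of each lesion was the lowest. The log2 fold change was -0.50 after SCL (SE 0.20, unadjusted p = 0.029, adjusted p = 0.0884) and -0.52 after ECL (SE 0.20, unadjusted p = 0.0196, adjusted p = 0.064, both edgeR), so that Basp1 missed the threshold in both. It passed under the offset for GC content and length, at -0.83 after SCL (adjusted p = 0.00815) and -0.91 after ECL (adjusted p = 0.00236, both edgeR), and after ECL also with the replicate block, with a sex term and without control replicate 4 or ECL replicate 3.

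The stathmins bind tubulin and regulate microtubules in growing processes. Stmn1 (chromosome 4, 134468320 to 134473843, plus strand) had 283 to 354 CPM in controls, 273 to 412 CPM in SCL cultures and 271 to 490.4 CPM in ECL cultures. Its log2 fold change was -0.08 after SCL (SE 0.15, adjusted p = 0.7497), or -0.41 under the offset for GC content and length (adjusted p = 0.0487), and 0.18 after ECL (SE 0.16, adjusted p = 0.452, both edgeR). Stmn2, which is largely neuronal (chromosome 3, 8509360 to 8561606, plus strand), had 521 to 745 CPM in controls, 442 to 642 CPM in SCL cultures and 475 to 577 CPM in ECL cultures. Its log2 fold change was -0.12 (SE 0.16, adjusted p = 0.601) and -0.18 (SE 0.15, adjusted p = 0.387, both edgeR). All 3 groups overlapped for both stathmins, and these signs depended on the scaling: with TMM factors over all symbols both were above 0 after SCL, and Stmn2 was also after ECL.

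**Figure D4:**
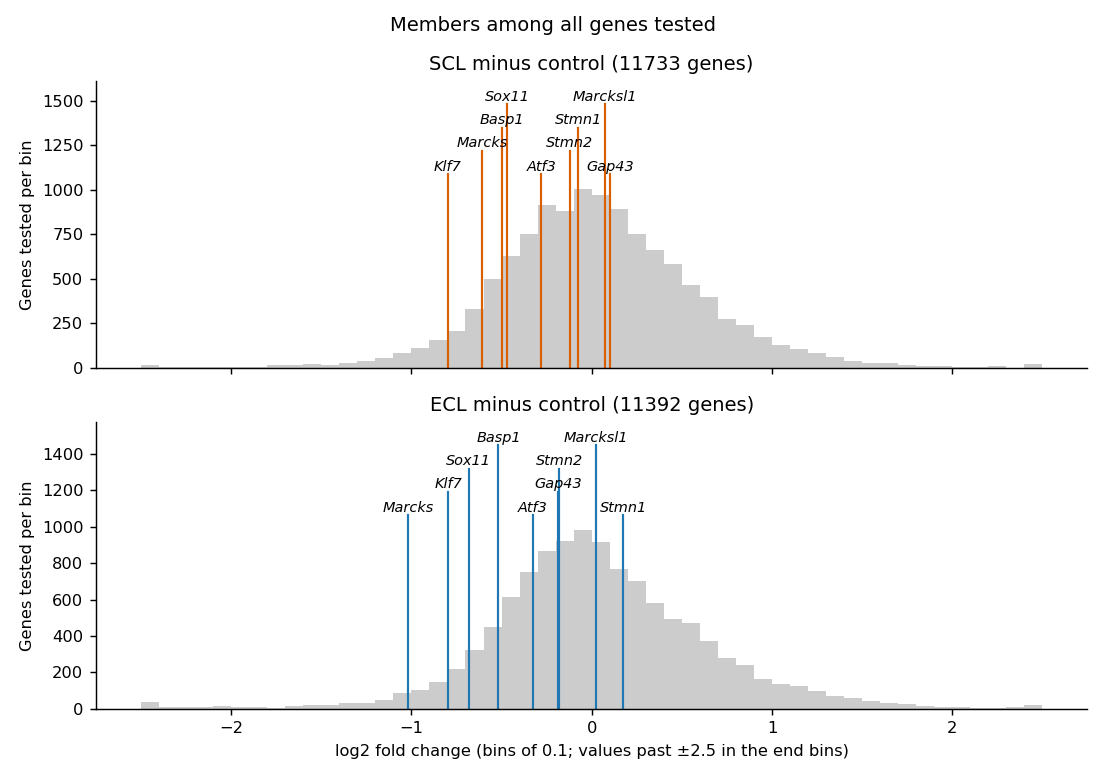
Histograms of the edgeR log2 fold changes of all genes tested after SCL (11733) and ECL (11392), with the 9 tested members as labelled lines. Most lines lie left of the centre of the histograms, between -0.80 and 0.10 for SCL and between -1.02 and 0.18 for ECL.

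ECL was also compared with SCL directly, a test that does not use the shared controls. All 10 members were tested, and 0 passed (adjusted p from 0.662 to 0.995). Over all 12478 genes edgeR called 0 (0.0%), 918 had an unadjusted p under 0.05, and DESeq2 called 65 genes, none of them a member. The highest estimates were those of Sprr1a at 0.52 and Stmn1 at 0.25, the lowest was that of Marcks at -0.40, and Marcks was the 1 member with an unadjusted p under 0.05. For Klf7 the mean levels were 72.7 and 72.6 CPM, with an approximate 95% interval of the log2 fold change from -0.23 to 0.25.

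The other genes of the pathway were taken from 5 lists. Of 28 growth cone and cytoskeleton genes tested, 3 rose and 3 fell after SCL (21.4%) and 4 rose and 6 fell after ECL (35.7%), with median log2 fold changes of -0.12 and 0.02, beside 24.6% and 27.6% of all genes called. Cfl1, the actin-severing protein cofilin, rose from 284 ± 63.4 CPM in controls to 737 ± 290.0 CPM in SCL cultures, by 1.38 on the log2 scale (adjusted p = 0.0046), and to 859.5 ± 191 CPM in ECL cultures, by 1.61 on the log2 scale (adjusted p = 0.000152, both edgeR). Tmsb4x, which sequesters actin monomers and is also abundant in microglia, rose after ECL by 1.25 (SE 0.20, adjusted p = 0.000771) and after SCL by 0.79 on the log2 scale (SE 0.25, adjusted p = 0.0373, both edgeR). Ncam1, a neural adhesion molecule, fell after SCL by 0.97 (SE 0.19, adjusted p = 0.00526) and after ECL by 1.07 on the log2 scale (SE 0.20, adjusted p = 0.00177, both edgeR). Genes of this list thus moved in both directions after either lesion.

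Among the other transcription factors of regeneration, 0 of 23 rose and 4 fell after SCL, and 1 of 22 rose and 2 fell after ECL, with medians of -0.28 and -0.25. The shares called, 17.4% and 13.6%, lay below those of all genes. Fos, an immediate early gene that also follows neuronal activity, fell from 443 ± 89.0 CPM in controls to 153 ± 31.7 after SCL and 115 ± 36.7 after ECL, by 1.53 and 1.93 on the log2 scale (adjusted p = 0.000889 and 8.90e-05, edgeR). Cebpb, a factor of injury and inflammation and counted among those that fell, was lower by 1.13 after SCL and by 2.05 after ECL (log2 scale, edgeR). Its mean was 12.7 CPM in controls, 5.83 after SCL and 3.08 after ECL, and it was under the mean minimum between the lesions. Its higher control level thus helped it to enter the fits with controls, and its values are a description. Klf4, also counted as fallen after SCL, reached the minimum in that comparison alone.

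Effectors that injured neurons induce went both ways. Of 20 tested after SCL, 4 rose and 2 fell, and of 19 tested after ECL, 4 rose and 2 fell (30.0% and 31.6%, near the shares of all genes). The count for SCL includes Nts, which was under the mean minimum in ECL and control cultures. Its higher level after SCL helped it to enter, so its log2 fold change of 1.27 is a description. Gfra1, the GDNF co-receptor, rose by 0.81 after SCL (SE 0.16, adjusted p = 0.00528) and by 0.78 after ECL (SE 0.16, adjusted p = 0.00269, edgeR) on the log2 scale. Npy, a neuropeptide of interneurons and injured neurons, rose after SCL from 459 ± 150.2 to 916 ± 118 CPM (log2 fold change 1.00, adjusted p = 0.00718), and also after ECL, by 0.87 on the log2 scale (SE 0.31, adjusted p = 0.0487, both edgeR). Gadd45b, a stress gene, fell after ECL by 0.98 (SE 0.26, adjusted p = 0.0142) and after SCL by 0.89 on the log2 scale (SE 0.26, adjusted p = 0.0243, both edgeR).

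Of the 16 genes tested for growth inhibition and its receptors, 1 rose and 4 fell after each lesion (31.2%, near the shares of all genes). The gene that rose was Mog, a myelin protein of oligodendrocytes, from 59.5 ± 11.1 CPM to 140.2 ± 27.2 after SCL and 148 ± 39.0 after ECL, by 1.24 and 1.32 on the log2 scale (adjusted p = 0.00131 and 0.000393, edgeR). Rock2, a kinase that collapses growth cones, fell by 0.96 after SCL (SE 0.14, adjusted p = 0.00156) and by 0.73 after ECL on the log2 scale (SE 0.19, adjusted p = 0.0109, both edgeR). Rtn4, which encodes the inhibitor Nogo, fell by 0.67 after ECL (SE 0.16, adjusted p = 0.00917) and by 0.52 after SCL on the log2 scale (SE 0.16, adjusted p = 0.0333, both edgeR). Of 9 genes for injury kinases and axon degeneration, 0 were called after SCL and 1 after ECL (Nmnat2, an axon survival enzyme, which fell by 0.36 on the log2 scale, adjusted p = 0.04997, and was at -0.35 after SCL, adjusted p = 0.0929, both edgeR).

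**Figure D5:**
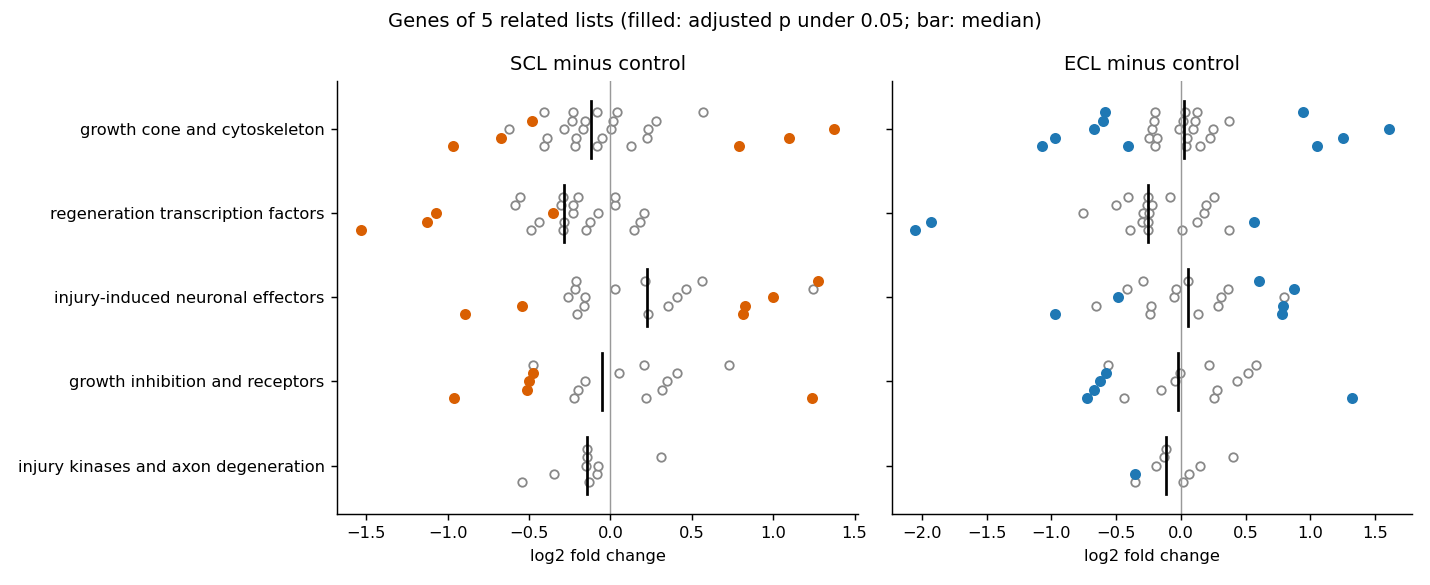
Log2 fold change after SCL (left) and ECL (right) of each tested gene of 5 related lists; filled points have an adjusted p under 0.05 (edgeR) and black bars are list medians. Calls lie on both sides of 0 in the growth cone and effector lists, and the transcription factor list has its median at -0.28 and -0.25.

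Cell type markers moved with these results, and their part in them was not tested. The summed level of 8 microglia markers was 299 to 359 CPM in controls, 666 to 1401 after SCL and 692 to 1032 after ECL, and 8 of 8 were called higher after SCL and 5 of 8 after ECL. For 7 neuron markers the sums were 3545 to 4493, 3081 to 4158 and 3000 to 4506 CPM, with 3 and 4 of 7 called lower. The sums for 6 CA1 pyramidal markers were 305 to 388.9, 357 to 454 and 332 to 520 CPM. Of these 6, 1 was called higher and 1 lower after SCL, and 0 were called after ECL. Of 6 astrocyte markers 4 were called higher after SCL and 3 after ECL, and 0 lower, while the ranges of their sums overlapped between groups. Slc1a3, the most abundant of them in controls, was not among those that rose, with means of 4066 CPM in controls, 3094 after SCL and 3023 after ECL. The sums for 5 markers of dividing cells were 27.3 to 69.5 CPM in controls, 106 to 116 after SCL and 43.3 to 96.4 after ECL. Several of the genes described here, Marcks, Marcksl1, Stmn1, Tmsb4x and Cfl1 among them, are also expressed by glia.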

How the data were processed

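Counts per gene were deposited for 13 libraries. According to the labels and the study's methods, the authors isolated polyadenylated RNA with a low-input kit, sequenced it in pairs on a NovaSeq6000, trimmed reads with cutadapt (3.5 in the submitters' processing notes), mapped them with STAR (2.7.8a) to mm10 and counted them with featureCounts (2.0.1) on GENCODE M25 without regard to strand. The deposited counts are whole numbers without normalization. In each library 63.0% to 74.3% of the counts between 1 and 20 were even numbers, so counts divided by 2 served as an alternative. Coordinates, exon lengths and GC content came from GENCODE M21 on GRCm38, which holds 53292 of the 55291 symbols, and promoters from RefSeq on GRCm38.p6 for 6 of 10 members.

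A separate edgeR 4.0.16 model (R 4.3.3) was fitted for SCL and the 5 controls, for ECL and the same controls, and for ECL and SCL (estimateDisp, glmQLFit, glmQLFTest; two-sided; Benjamini-Hochberg over all genes tested; threshold 0.05). Genes needed a mean TMM-normalized count of 150. Standard errors are the absolute log2 fold change over the square root of F, and approximate 95% intervals are 1.96 standard errors wide on each side. A member under the minimum was compared by a two-sided exact permutation test of log2(CPM + 1) in scipy 1.17.1. The code was tested on simulated data. Alternatives were DESeq2 1.42.0, other scalings and filters, a single fit, a replicate block, an offset for GC content and length (mgcv 1.9.3), a sex term from the column headings, halved counts and leaving out each library. The heading number as a block, the filterByExpr fits of Sprr1a with covariates or a library left out, plain CPM and a pseudocount of 0.5 were added after seeing the data. Replicate numbers were checked for pairing: same-numbered libraries of different groups had correlated deviations over 0.1 in 2 of 4 pairs (control and SCL) and in 1 of 4 (control and ECL, and SCL and ECL), so the numbers were not taken as pairs. Single pairs were still alike. SCL and ECL replicate 1 reached 0.546, beside at most 0.352 in differently numbered pairs of these groups. Control and ECL replicate 3 reached 0.43, beside at most 0.273. For control and SCL the maxima were 0.239 and 0.318. The labels give no batch or date. Counting error alone limits precision little for members other than Sprr1a, the others having at least 263 counts in every library.

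The members, the pathway lists and the 14 marker lists were chosen with earlier results of these data known. All 10 members are named, of each pathway list at most the 2 called genes with the smallest adjusted p per comparison, markers mainly as sums, and for each member above the minimum the 3 genes most correlated with it. Members called and non-overlapping in the main fits are set beside the same shares over all genes. Protein sequences were not used here, and 1 further pathway list and 1 correlated gene are not reported here.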

Additional observations from a re-analysis of the deposited data

Results flagged for a closer look

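In 3 of the 30 gene and group combinations tested (10 genes in 3 groups), 1 library stood far from the others of its group by Dixon's test at 95%, a test by which chance marks about 1 group in 20. Marcksl1 in ECL replicate 1 had 62.8 CPM, while the other 3 ECL cultures lay close together near 100. Stmn1 in SCL replicate 3 had 412 CPM, above the 273 to 291 CPM of the other SCL cultures. Sox11 in SCL replicate 1 had 75.3 CPM, above the other SCL cultures at 34.6 to 40.5 CPM. These genes did not pass the test after either lesion in edgeR with all libraries and no offset, while the offset for GC content and length called Marcksl1 after ECL and Stmn1 after SCL.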

How the results depend on the processing

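Klf7 kept its direction and its call in all 22 alternatives for each lesion (SCL -0.89 to -0.58, ECL -0.89 to -0.59 on the log2 scale), and Marcks after ECL did so too (-1.15 to -0.75). For Sprr1a, which entered its edgeR fits through the lesioned libraries, the log2 fold changes of 3.02 to 4.57 for SCL and 3.71 to 5.08 for ECL are a description. The number of members called after SCL moved from 1 to 4 under the GC and length offset, to 3 with the replicate block and this offset, and to 2 under filterByExpr or no filter, since Sprr1a then entered the fit, and it ran from 1 to 2 when 1 library was left out. After ECL it moved from 2 to 5 under the offset. Leaving out 1 library gave 2 to 3. With the replicate block alone it was 1 after SCL and 3 after ECL, where Basp1 joined at -0.57 (adjusted p = 0.0302, edgeR). The shares of all genes called under these alternatives are not given here, so these counts show nothing particular to the members. The signs of uncalled members near 0 changed as follows, and the cause was not tested. With TMM factors over all symbols or no filter, Stmn1 was 0.13 and Stmn2 0.086 after SCL, and Stmn2 0.018 after ECL. Under the offset, Gap43 was -0.30 and Marcksl1 -0.29 after SCL, and Marcksl1 -0.44 and Stmn1 -0.16 after ECL. With block and offset together, Gap43 was -0.12 and Marcksl1 -0.29 after SCL, and Marcksl1 -0.46 and Stmn1 -0.16 after ECL. With the block alone Gap43 was 0.066 and Marcksl1 -0.022 after ECL. With a sex term Gap43 was -0.037 after SCL, Marcksl1 -0.13 after ECL and Sprr1a -0.38 between lesions. When 1 library was left out, Gap43 lay between -0.29 and 0.33 for SCL and between -0.29 and 0.046 for ECL, Marcksl1 from -0.0068 to 0.16 and from -0.061 to 0.18, and Sprr1a between lesions from -0.11 to 1.54.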

Other observations

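For each member above the mean minimum, the 3 genes whose log2(CPM + 1) was most correlated with it over the 13 libraries were taken from 11933 genes, as a description without a test. The libraries share depth, preparation and group differences, and the highest of so many correlations is high in any data. Klf7 was most like Gtpbp4, Mtdh and Dcaf6 (Pearson's r 0.98, 0.97 and 0.97, Spearman's rho 0.86, 0.83 and 0.87), and without the 2 libraries farthest from its median r was 0.94, 0.93 and 0.95. Marcks was most like Rest, Fli1 and Rfx3 (r 0.97, 0.96 and 0.96, rho 0.96, 0.98 and 0.93, and without 2 libraries 0.92, 0.90 and 0.86). Sox11 was most like Rnf2, Abi2 and Synj2bp (r 0.97, 0.96 and 0.95, rho 0.84, 0.90 and 0.80, and without 2 libraries 0.94, 0.84 and 0.89). Gap43 was most like Inpp5f, Usp15 and Gm42467, with r from 0.91 to 0.94, which for the last 2 was 0.68 and 0.67 without 2 libraries. For Basp1 they were Zdhhc5, Gm43980 and Pigm, for Marcksl1 Rtl8b, Trp53i11 and Sfrp1, for Stmn1 Timm9, Mplkip and Ssb, for Stmn2 Sh3bgrl, Nbn and Wdr75, and for Atf3 they included Mfhas1 and Tmem131, with r from 0.84 to 0.95.

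Other marker lists were summed in the same way. The summed level of 6 oligodendrocyte markers was 4222 to 5722 CPM in controls, 4200.0 to 5327 after SCL and 3725 to 5753 after ECL, with 2 of 6 called higher after each lesion. For 4 endothelial markers the sums were 18.6 to 29.3 CPM in controls, 10.3 to 14.1 after SCL and 9.49 to 14.7 after ECL, without overlap, and the 1 of them that was tested was called lower after both lesions. Most of this sum was Flt1, with a control mean of 20.8 CPM, so it describes mainly that gene. Cldn5, Pecam1 and Tek had control means of 0.311, 0.853 and 1.18 CPM. Immature neuron markers, 5 genes, summed to 32.3 to 50.9 CPM in controls, 31.0 to 37.2 after SCL and 36.4 to 42.1 after ECL, with 0 called. The sums were 1162 to 1911, 1472 to 1842 and 1248 to 2002 CPM for 5 interneuron markers, 136 to 202, 150.3 to 223 and 135 to 183 CPM for 4 markers of oligodendrocyte precursors, and 31.0 to 115, 36.6 to 83.6 and 26.3 to 204 CPM for 4 fibroblast markers, in controls, after SCL and after ECL. Most of the interneuron sum was Sst, with a control mean of 907 CPM. Of the 5 interneuron markers, 1 was called lower after SCL and 2 after ECL, and 0 higher. The astrocyte sums were 5586 to 9684, 7571 to 11650.0 and 6942 to 9928 CPM.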
